A study of Mus musculus with 6 samples.

Results

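The genes described are 10 of the Notch pathway: the DNA-binding factor Rbpj, the receptors Notch1, Notch2 and Notch3, the targets Hes1, Dtx1 and Nrarp, the coactivators Maml1 and Maml2, and the corepressor Spen. They were chosen by name with the increase of Rbpj already known, and all 10 were found among the 23420 rows of the table. RNA came from mouse (C57BL/6) naive CD4 T cells activated for 2 days through CD3 and CD28; the cytokines IL-6, IL-1b and IL-23 were added to make pathogenic Th17 cells. The group called Stim1KO Stat3C here (3 libraries) had the genotype Stim1fl/fl Stat3CSTOPfl/fl CD4-Cre, and the group called Stat3C (3 libraries) had the genotype Stat3CSTOPfl/fl CD4-Cre. All cells therefore carried Stat3C, an always-active STAT3 released by Cre under the Cd4 promoter, and the groups differed in the floxed Stim1 gene, which encodes the calcium sensor of the endoplasmic reticulum. Neither group is wild type, and neither the age of the mice nor whether each library came from its own mouse is stated. A p-value therefore measures the spread between libraries, of which an unknown part may be technical.

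Notch receptors are cut at the membrane when a ligand on a neighbouring cell binds them, first by an ADAM protease and then by gamma-secretase. The freed intracellular part enters the nucleus, joins RBPJ on DNA and recruits a Mastermind-like coactivator. Without it, RBPJ is held with corepressors such as SPEN. In mouse Th17 cells RBPJ is known for promoting Il23r and restraining Il10.

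Values are normalised read counts, that is, reads per gene divided by a factor per library. A difference is on the log2(value + 1) scale, Stim1KO Stat3C minus Stat3C, with its standard error (SE) from limma fitted over 11947 genes (mean value 10 or more), and it understates changes of low genes. Recovered depth was 16009755 to 22519269 reads in Stim1KO Stat3C and 23092044 to 51347367 in Stat3C. Stim1 itself had 811, 794 and 687 normalised counts in Stim1KO Stat3C, against 1999, 1969 and 1931 in Stat3C, lower in every library of the deleted genotype. Xist was near 0 (1.37 to 3.53) in replicates 1 and 2 of each group and high in replicate 3 of each (11549 in Stim1KO Stat3C, 8362 in Stat3C), so each group holds the same split of libraries. By these values replicate 3 of each group is not a technical repeat of replicates 1 and 2. Stat3C replicate 2 stood apart from the others of its group (1623 genes passed the test with it and 2899 without it), and values that rest on it are given below. Of the T cell markers, all 6 matched were high, with summed counts of 40502 to 45943 in Stim1KO Stat3C and 34018 to 36145 in Stat3C, and 4 of the 6 rose (Cd3e, Cd3g, Cd3d and Thy1). The CD8 markers Cd8a and Cd8b1 summed to 111 to 159 in Stim1KO Stat3C and 277 to 453 in Stat3C, and both fell. Markers of natural killer cells (6 genes) summed to at most 18.1 in any library, with Klra8 and Klra4 at 0 in all.

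Rbpj, the factor that all Notch receptors signal through, stood at close to double the level without Stim1. It had 16297, 16312 and 16992 normalised counts in Stim1KO Stat3C, against 8292, 7931 and 8474 in Stat3C. The lowest Stim1KO Stat3C library lay far above the highest Stat3C library, and the libraries of each group lay close together, with a coefficient of variation of 2.40% in Stim1KO Stat3C and 3.36% in Stat3C. The means were 16534 ± 397 in Stim1KO Stat3C and 8232 ± 276 in Stat3C (SD, n = 3 each), 2.01-fold apart, for a log2 difference of 1.01 (SE 0.05). Among the 11947 genes Rbpj ranked 1 by its moderated statistic and 422 from the top by log2 difference. This is a description without a test, since these values put the gene on the list. The gap was as large within the libraries with little Xist (16297 and 16312 in Stim1KO Stat3C, 8292 and 7931 in Stat3C) as in those with much (16992 in Stim1KO Stat3C, 8474 in Stat3C). The gene lies on chromosome 5, 53466152 to 53657362, plus strand (GRCm38), with 12 annotated transcripts, and the count does not separate them. GENCODE also lists the copies Rbpj-ps1 and Rbpj-ps3, which have no rows in the table, and how shared reads were counted is not stated. On the same build GENCODE places the receptors Notch1 on chromosome 2 (26457903 to 26516663, minus strand), Notch2 on chromosome 3 (98013527 to 98150361, plus strand) and Notch3 on chromosome 17 (32120820 to 32166852, minus strand). The cofactors are Maml1 on chromosome 11 (50255634 to 50292311, minus strand), Maml2 on chromosome 9 (13297957 to 13709388, plus strand) and Spen on chromosome 4 (141467890 to 141538597, minus strand). The targets are Hes1 on chromosome 16 (30064384 to 30067796, plus strand), Dtx1 on chromosome 5 (120680202 to 120711927, minus strand) and Nrarp on chromosome 2 (25180758 to 25183339, plus strand).

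A promoter window is printed for each of Rbpj, Notch1, Notch2 and Spen. Rbpj was chosen as the factor the description starts from, and the receptors Notch1 and Notch2 because they differed in opposite directions. Spen was chosen because its window alone holds the longer binding sequence. The windows are from RefSeq on GRCm38.p6, 250 bases before to 50 after a transcript start, written 5′ to 3′ on the gene's strand, and capitals mark TGGGAA, the core of the sequence RBPJ binds, or TTCCCA, the same core on the other strand.
Rbpj, chr5:53590096-53590395, plus strand: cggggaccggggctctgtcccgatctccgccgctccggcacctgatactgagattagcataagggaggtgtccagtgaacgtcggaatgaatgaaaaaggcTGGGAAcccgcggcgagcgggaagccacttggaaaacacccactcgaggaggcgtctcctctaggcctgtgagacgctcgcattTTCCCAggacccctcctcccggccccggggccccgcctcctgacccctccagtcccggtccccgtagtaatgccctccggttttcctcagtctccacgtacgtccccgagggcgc
Notch1, chr2:26503773-26504072, minus strand: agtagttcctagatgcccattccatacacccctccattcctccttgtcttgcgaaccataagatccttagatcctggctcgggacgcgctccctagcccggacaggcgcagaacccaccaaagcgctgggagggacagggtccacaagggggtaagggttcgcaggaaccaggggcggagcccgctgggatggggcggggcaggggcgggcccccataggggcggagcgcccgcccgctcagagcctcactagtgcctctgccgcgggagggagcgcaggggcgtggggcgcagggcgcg
Notch2, chr3:98013288-98013587, plus strand: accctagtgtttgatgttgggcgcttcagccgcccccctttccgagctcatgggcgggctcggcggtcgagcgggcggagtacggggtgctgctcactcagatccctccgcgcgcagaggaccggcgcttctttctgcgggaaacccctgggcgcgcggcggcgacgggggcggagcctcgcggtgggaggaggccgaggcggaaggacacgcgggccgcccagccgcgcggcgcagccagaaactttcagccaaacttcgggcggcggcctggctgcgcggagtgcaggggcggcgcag
Spen, chr4:141538548-141538847, minus strand: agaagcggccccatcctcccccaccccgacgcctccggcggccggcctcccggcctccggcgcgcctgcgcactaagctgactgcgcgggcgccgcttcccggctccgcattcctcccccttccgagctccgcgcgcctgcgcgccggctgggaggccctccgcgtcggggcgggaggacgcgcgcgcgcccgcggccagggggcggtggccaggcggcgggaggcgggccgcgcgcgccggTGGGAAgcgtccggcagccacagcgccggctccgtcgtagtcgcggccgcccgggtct
The Rbpj window held TGGGAA with its first base at -149 from the start and TTCCCA at -65. A second Rbpj window, for a later start, overlaps this one and held the same TTCCCA. The Spen window held TGGGAA at -8, within the longer form GTGGGAA. The Notch1 and Notch2 windows held neither form of the core. The Rbpj and Notch1 windows lie inside the GENCODE spans given above, so starts annotated further upstream in these genes are not covered. RefSeq windows were matched for 9 members (11 windows, Hes1 not matched), and 4 of the 11 held the core: the overlapping pair of Rbpj, that of Spen, and the second of a pair for Maml2. Over all 32851 windows of this length 25.6% held the core and 6.38% held GTGGGAA or its reverse complement TTCCCAC, so a match is common and is only a description of these letters.

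**Figure D1:**
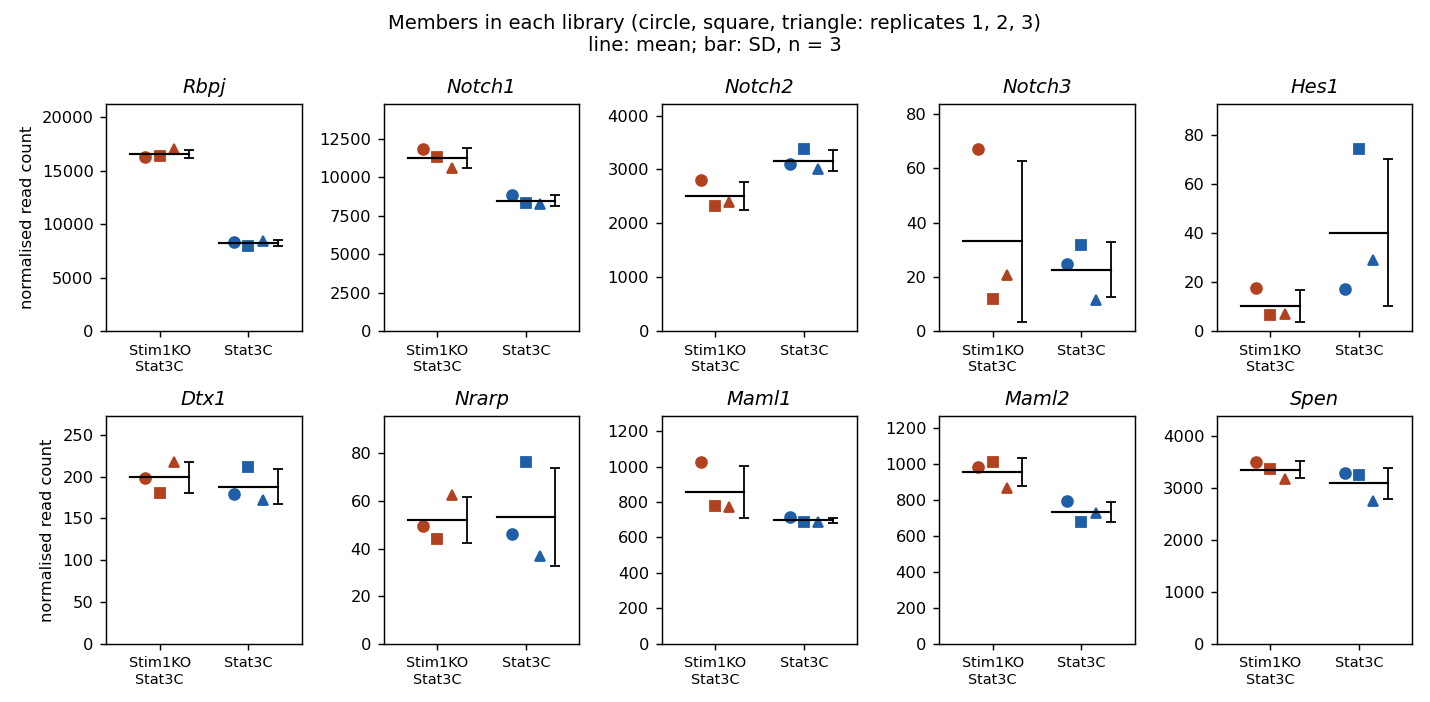
Normalised read counts (y axis, from 0) of the 10 members in each library, with Stim1KO Stat3C left of Stat3C in every panel, symbols for replicates 1, 2 and 3, a line at the mean and a bar for the SD (n = 3). Rbpj, Notch1, Maml1 and Maml2 have all 3 Stim1KO Stat3C values above all Stat3C values, Notch2 has all 3 below, and the other 5 members overlap.

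The receptors did not move together. Notch1, the main Notch receptor of T cells, had 11814, 11325 and 10568 normalised counts in Stim1KO Stat3C, against 8860, 8350 and 8232 in Stat3C. The groups did not overlap, with means of 11236 ± 628 in Stim1KO Stat3C and 8481 ± 334 in Stat3C and a log2 difference of 0.40 (SE 0.06). Notch2 went the other way, with 2812, 2331 and 2388 in Stim1KO Stat3C, against 3096, 3376 and 3001 in Stat3C. Here every Stim1KO Stat3C library was the lower. The means were 2510 ± 262 in Stim1KO Stat3C and 3158 ± 195 in Stat3C, for a log2 difference of -0.33 (SE 0.08). Without Stat3C replicate 2, the highest library for Notch2, the log2 difference was -0.28. Notch3 was barely detected. Its normalised counts were 67.1, 11.8 and 20.9 in Stim1KO Stat3C, from 49, 11 and 21 reads, against 24.7, 31.7 and 11.6 in Stat3C, from 57, 63 and 12 reads. Stim1KO Stat3C replicate 1 was the highest, the groups overlapped, and the log2 difference of 0.28 had an SE of 0.65 and turned to -0.39 without that library. Notch4, outside the 10, was lower still, at 12.3, 0 and 0 in Stim1KO Stat3C and 2.60, 2.52 and 7.75 in Stat3C. In bulk RNA, fewer cells of a type and less RNA per cell cannot be told apart. Notch2 is also known from B cells and myeloid cells. Markers of B cells, summed over 7 genes, lay at 63.4 to 98.6 in Stim1KO Stat3C and 227 to 546 in Stat3C. Among them Ms4a1 was at 0 in every Stim1KO Stat3C library and 8.56 to 24.2 in Stat3C, and 3 of the 7 passed the test as lower, Cd79a and Ebf1 among them. The 10 myeloid and dendritic markers summed to 357 to 418 in Stim1KO Stat3C and 155 to 339 in Stat3C. Of the 10, 1 rose, Cd68, which made up most of the sum in Stim1KO Stat3C, and 0 passed as lower. By group mean, Csf1r, Lyz2, Adgre1, Itgam, Flt3, Zbtb46 and Cd14 were lower in Stim1KO Stat3C, and Xcr1 was higher. Itgam averaged 8.13 in Stim1KO Stat3C and 31.7 in Stat3C, Cd14 2.98 and 20.1, and Xcr1 5.71 and 2.34. Csf1r and Adgre1 were at 0 in every Stim1KO Stat3C library and in Stat3C replicate 3. They had 2.16 and 3.03 in Stat3C replicate 1, and 7.05 and 26.7 in Stat3C replicate 2. Siglech was at 0 in all 6 libraries. The part of either cell type in the Notch2 values was not tested.

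Of the coactivators, Maml2 passed the threshold as higher and Maml1 did not pass. Maml2, a Mastermind-like protein that bridges the Notch and RBPJ complex to histone acetyltransferases, had 985, 1013 and 867 normalised counts in Stim1KO Stat3C, against 791, 677 and 728 in Stat3C. The groups did not overlap, and the log2 difference was 0.38 (SE 0.09). Maml1, its paralogue, had 1028, 779 and 770 in Stim1KO Stat3C, against 714, 687 and 690 in Stat3C. These did not overlap either, but Stim1KO Stat3C replicate 1 stood above the others of its group, and the log2 difference of 0.29 (SE 0.12) was 0.15 without it. Spen, the large corepressor that binds RBPJ in the place of Notch, had 3502, 3359 and 3172 in Stim1KO Stat3C, against 3278, 3241 and 2743 in Stat3C. The groups overlapped and the log2 difference was 0.12 (SE 0.08). Spen shares 41 exon bases with Zbtb17 on the opposite strand, and whether reads were counted by strand is not stated. Genes on the opposite strand also share exon bases with Notch1, Notch3, Nrarp (2051 bases) and Maml1, and genes on the same strand with Notch2 and Maml2; none of these has a row in the table.

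The values of all 3 classical targets overlapped between the groups. Only 35.6% of all genes tested had values that did not overlap, so nothing is read from this. Hes1, a repressor that Notch induces in many tissues, was low everywhere and lowest in 2 of the Stim1KO Stat3C libraries. It had 17.8, 6.44 and 6.97 normalised counts in Stim1KO Stat3C, from 13, 6 and 7 reads, against 17.3, 74.0 and 29.1 in Stat3C, from 40, 147 and 30 reads. Stim1KO Stat3C replicate 1 and Stat3C replicate 1 were nearly equal, and Stat3C replicate 2 was far above all others. The log2 difference was -1.74 (SE 0.62), and -1.18 without Stat3C replicate 2. Hes1 did not pass the threshold here, but was past it as lower with DESeq2 on recovered reads (log2 difference -1.99). Dtx1, which encodes the ubiquitin ligase Deltex, had 199, 180 and 218 in Stim1KO Stat3C, against 179, 212 and 172 in Stat3C, with overlapping groups and a log2 difference of 0.08 (SE 0.14). Nrarp, a small ankyrin-repeat protein that Notch induces and that limits it in turn, had 49.3, 44.0 and 62.7 in Stim1KO Stat3C, against 46.3, 76.6 and 36.8 in Stat3C. Its groups overlapped fully, and the log2 difference of 0.02 (SE 0.31) changed sign in 9 of 21 other fits.

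In Stat3C replicate 2 several scarce genes of the pathway reached the highest value of their group or of all 6 libraries. Hes1 (74.0), Nrarp (76.6) and, from the lists below, Maml3 (117), Dtx4 (53.4) and Dll4 (12.6) were highest in this library of all 6, and Notch3 (31.7) was highest within Stat3C. These genes were picked after their values were seen. The same library was also highest of the 6 for the myeloid markers Adgre1 (26.7), Itgam (72.5) and Cd14 (40.3), against at most 3.03, 14.7 and 10.4 in any other. Csf1r (7.05), Lyz2 (19.6), Flt3 (11.6) and Zbtb46 (21.2) were highest there too. Cd68 was not, at 139 against 317 to 396 in Stim1KO Stat3C, and Xcr1 was lowest there (1.51). The markers summed highest in Stim1KO Stat3C replicate 3 (418), where Cd68 alone had 396. All these markers were named after their values were seen. Whether the higher pathway genes and the higher myeloid markers are linked was not tested.

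**Figure D2:**
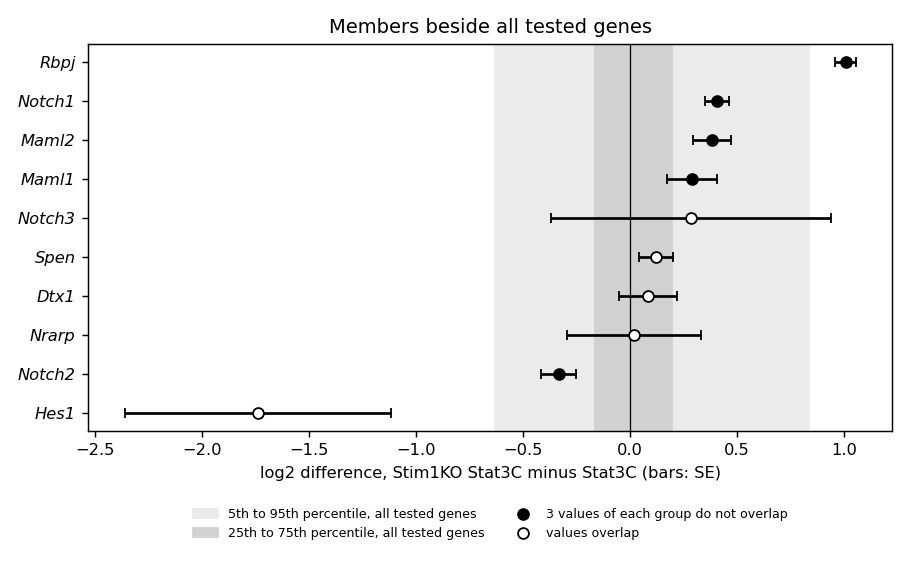
Log2 difference, Stim1KO Stat3C minus Stat3C, of each member (x axis, bars: SE), over shading for the middle of all tested genes, from the 25th percentile (-0.16) to the 75th (0.20) and from the 5th (-0.63) to the 95th (0.84). Rbpj lies above the 95th percentile and Hes1 below the 5th with a wide SE, and the other 8 lie between these limits.

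Counted over the 10 members, Rbpj, Notch1 and Maml2 passed an adjusted p of 0.05 as higher, Notch2 passed as lower, and 6 did not pass (limma, Benjamini-Hochberg over the 11947 genes). Over all genes tested 8.62% passed as higher and 4.96% as lower. Values did not overlap between the groups for 4 members in the upward and 1 in the downward direction, against 19.2% and 16.4% of all genes tested (35.6% in either direction). Since Rbpj was chosen for its place in this comparison, nothing is read from these counts. All 10 members passed the filter on low values. The Notch1 call was lost only with replicates 1 and 2 of each group alone. The Notch2 call was lost in 7 of 21 other fits and the Maml2 call in 6, among them the fit without a variance trend. By library, the Notch2 call was lost without any one of Stim1KO Stat3C replicates 2 and 3 or Stat3C replicates 1 and 3. The Maml2 call was lost without any one of Stim1KO Stat3C replicates 1 and 2 or Stat3C replicates 1 and 3. The log2 difference of Rbpj lay between 0.97 and 1.03 over the 21 other fits, given as a description.

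Per length of merged exons, Rbpj and Notch1 were the most abundant members in both groups. Rbpj had 1297 ± 31.2 normalised reads per kilobase in Stim1KO Stat3C and 646 ± 21.7 in Stat3C, and Notch1 had 789 ± 44.1 in Stim1KO Stat3C and 596 ± 23.4 in Stat3C. In Stim1KO Stat3C every Rbpj library lay above every Notch1 library, while in Stat3C their ranges overlapped (622 to 665 for Rbpj, 578 to 623 for Notch1). Per length of the longest transcript they did not overlap in Stat3C (1446 to 1545 for Rbpj, 868 to 934 for Notch1). Spen (237 ± 11.8) and Notch2 (233 ± 24.3) came next in Stim1KO Stat3C and overlapped, whereas in Stat3C Notch2 (293 ± 18.1) lay above Spen (219 ± 21.2) in every library. Maml1 and Maml2 followed, at 155 ± 26.5 and 145 ± 11.7 in Stim1KO Stat3C with overlap, and at 126 ± 2.64 and 111 ± 8.66 in Stat3C without overlap. Dtx1 had 37.8 ± 3.56 in Stim1KO Stat3C and 35.7 ± 4.02 in Stat3C, and Nrarp had 20.1 ± 3.73 in Stim1KO Stat3C and 20.6 ± 8.04 in Stat3C. Hes1 (5.11 ± 3.15 in Stim1KO Stat3C, 19.7 ± 14.7 in Stat3C) and Notch3 (4.11 ± 3.67 in Stim1KO Stat3C, 2.80 ± 1.26 in Stat3C) were the least abundant. Hes1 overlapped Notch3 in Stim1KO Stat3C and Nrarp in Stat3C, where Hes1 (27.3 ± 20.4) stood above Nrarp (20.6 ± 8.04) by the longest transcript.

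**Figure D3:**
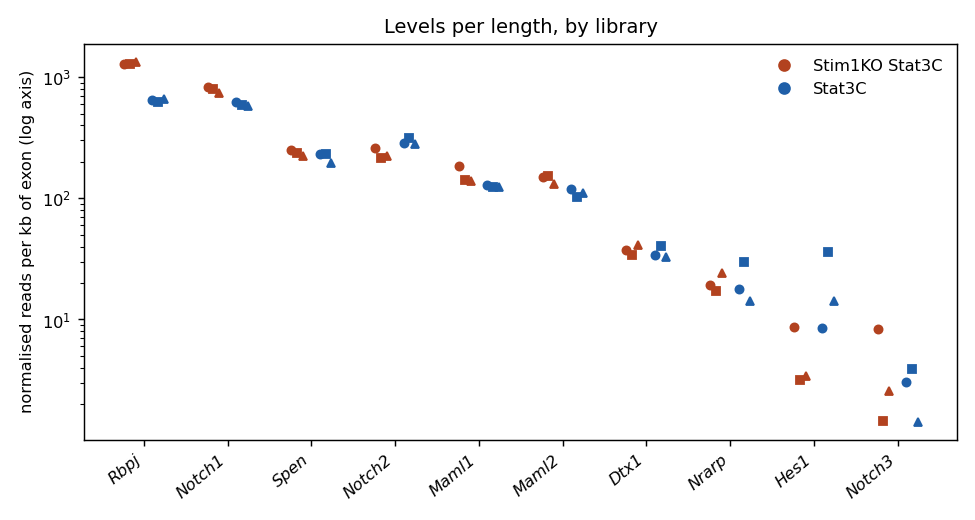
Normalised reads per kilobase of merged exons (log axis) for each member, ordered by the mean in Stim1KO Stat3C, with the 3 Stim1KO Stat3C libraries left of the 3 Stat3C libraries. Rbpj stands highest, at 1278 to 1333 in Stim1KO Stat3C and 622 to 665 in Stat3C, and Notch3 lowest.

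Other genes of the pathway, on 7 lists of 86 genes in all, were tested in the same fit. Of 68 that passed the filter, 7 rose, 5 fell and 56 did not pass. This was 17.6% called, against 13.6% of all genes tested (8.62% higher and 4.96% lower). The lists are small and were chosen with earlier results known, so nothing is read from the count of any single list. The median log2 difference of the 68 was 0.02, against -0.001 over all genes. Leaving out Stim1KO Stat3C replicate 1 gave 3 higher and 2 lower, replicate 2 gave 3 and 4, and replicate 3 gave 6 and 2. Leaving out Stat3C replicate 1 gave 3 higher and 2 lower, replicate 2 gave 12 and 6, and replicate 3 gave 3 and 3.

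Ligands were scarce. Of the 8 ligand genes and Notch4, only Jag2, which encodes a Serrate-type ligand, passed the filter, at 148 ± 7.21 in Stim1KO Stat3C and 180 ± 54.6 in Stat3C (log2 difference -0.24, SE 0.21, adjusted p = 0.47). Dll1, Dll3, Dll4, Jag1, Dlk1 and Dlk2 reached 16.4 at most in any library, and Dner was at 0 in all 6, where a value of 0 allows up to 3 reads, or 1.30 to 4.11 normalised counts depending on the library.

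Among 9 tested genes of receptor cleavage, 1 rose and none fell, and all 9 had a positive log2 difference (median 0.05). Over all genes tested 49.8% had a positive difference. Most of the differences on this list were smaller than their SE, so no joint rise is read from the signs. The list had 0 higher without any one of Stim1KO Stat3C replicates 1 and 2 or Stat3C replicates 1 and 3.

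Of 6 genes that put sugars on Notch, Lfng rose and the other 5 did not pass (median 0.05). Lfng encodes Lunatic fringe, which extends O-fucose on the receptor and shifts its choice of ligand. It had 2687, 2132 and 2768 in Stim1KO Stat3C, against 1239, 1354 and 1213 in Stat3C, with no overlap. The means, 2529 ± 346 in Stim1KO Stat3C and 1269 ± 75.2 in Stat3C, were 1.99-fold apart (log2 difference 0.99, SE 0.10, adjusted p = 0.00165, limma), close to the size seen for Rbpj. Its relatives Mfng (1801 ± 69.7 in Stim1KO Stat3C, 1936 ± 188 in Stat3C) and Rfng (560 ± 38.3 in Stim1KO Stat3C, 596 ± 20.7 in Stat3C) stood at log2 differences of -0.10 and -0.09 with overlapping values and did not pass. Mfng and Rfng were named for comparison, after their values were seen.

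In the list of trafficking and turnover, 2 of 17 rose and none fell (median 0.18). Sel1l, an adaptor of endoplasmic reticulum degradation whose counterpart in the worm Caenorhabditis elegans is known as a Notch regulator, averaged 2178 ± 103 in Stim1KO Stat3C and 1751 ± 59.8 in Stat3C (log2 difference 0.31, SE 0.06, adjusted p = 0.014, limma). Aak1, a kinase of endocytic adaptors that acts on Numb, averaged 2048 ± 140 in Stim1KO Stat3C and 1638 ± 153 in Stat3C (log2 difference 0.32, SE 0.09, adjusted p = 0.0428, limma). The Aak1 call was lost in 12 of 21 other fits. Without Stim1KO Stat3C replicate 1 or 2 or Stat3C replicate 1 or 3 neither of them passed, without Stim1KO Stat3C replicate 3 Sel1l alone did, and without Stat3C replicate 2 the list had 5 higher.

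**Figure D4:**
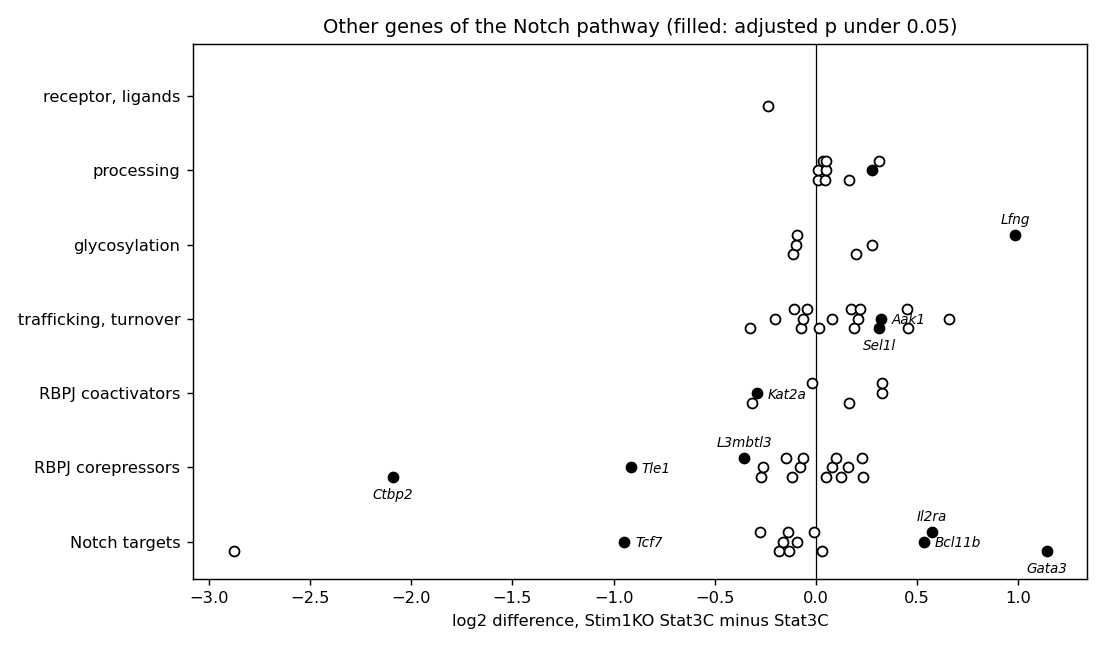
Log2 difference, Stim1KO Stat3C minus Stat3C, of the 68 tested genes on the 7 lists, 1 point per gene, filled where adjusted p was under 0.05, with names for those described in the text. Lfng lies near 1 and the RBPJ corepressors that passed all lie below 0, and the unfilled point at -2.88 is Ccnd1, which had 0 to 2.15 normalised counts in Stim1KO Stat3C and 5.81 to 47.9 in Stat3C.

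Among RBPJ coactivators other than the members Maml1 and Maml2, 1 of 6 fell and none rose (median 0.07). It was Kat2a, the histone acetyltransferase GCN5, at 1641 ± 93.3 in Stim1KO Stat3C and 2006 ± 88.7 in Stat3C (log2 difference -0.29, SE 0.07, adjusted p = 0.0248, limma). Of 16 corepressors other than Spen, 3 fell and none rose (median -0.07). Tle1, a Groucho protein that HES repressors recruit, had 194, 270 and 228 in Stim1KO Stat3C, against 444, 418 and 435 in Stat3C (log2 difference -0.92, SE 0.13, adjusted p = 0.0046, limma). Ctbp2 had 21.9, 49.4 and 20.9 in Stim1KO Stat3C, against 93.9, 233 and 87.2 in Stat3C (log2 difference -2.09, SE 0.46, adjusted p = 0.0234, limma), with Stat3C replicate 2 far above its group. The Ctbp2 difference lay between -2.48 and -1.50 over the 21 other fits, and its call held without Stat3C replicate 2. L3mbtl3, a chromatin protein that binds RBPJ, averaged 267 ± 12.2 in Stim1KO Stat3C and 341 ± 1.62 in Stat3C (log2 difference -0.35, SE 0.09, adjusted p = 0.0431, limma). Only Tle1 of these 4 passed when Stim1KO Stat3C replicate 1 or 3 or Stat3C replicate 1 was left out, and the Kat2a call was also lost without Stat3C replicate 3. Without Stat3C replicate 2 the coactivators had 2 higher. The L3mbtl3 call was lost in 10 of 21 other fits, among them every one that left out a library.

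Of 13 further Notch targets tested, 3 rose, 1 fell and 9 did not pass (median -0.13). Those that rose were Il2ra, a chain of the IL-2 receptor, and the T cell factors Bcl11b (3069 ± 200 in Stim1KO Stat3C, 2120 ± 172 in Stat3C, log2 difference 0.53) and Gata3 (272 ± 96.1 in Stim1KO Stat3C, 119 ± 23.0 in Stat3C, log2 difference 1.14). Their adjusted p was 0.000564, 0.00454 and 0.0278 (limma). Tcf7, which encodes TCF1 and is a target of Notch1 in the thymus, fell to 4501 ± 483 in Stim1KO Stat3C, against 8653 ± 578 in Stat3C (log2 difference -0.95, SE 0.08, adjusted p = 0.0013, limma). The HES and HEY family was little expressed apart from Hes6. Hes7, Hey2 and Heyl were at 0 in every library, and Hey1 had 41.1, 15.0 and 20.9 in Stim1KO Stat3C and 17.3, 43.8 and 25.2 in Stat3C. Myc stood at 8554, 8502 and 8930 in Stim1KO Stat3C, against 9234, 7791 and 9221 in Stat3C, overlapping. The Gata3 call was lost without any one of Stim1KO Stat3C replicates 1 and 2 or Stat3C replicates 1 and 3, and without Stat3C replicate 2 there were 2 lower. The HES and HEY genes and Myc were named after their values were seen.

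Of 13 T helper genes linked to Notch or RBPJ, 7 rose, 3 fell and 3 did not pass, with 4 higher when Stim1KO Stat3C replicate 1 or 3 or Stat3C replicate 3 was left out. They were picked with the results known, so the count is no separate evidence. Il10 rose to 2060, 1490 and 3667 in Stim1KO Stat3C, against 203, 477 and 240 in Stat3C (log2 difference 2.97, SE 0.38, adjusted p = 0.00325, limma). Il23r, given after its values were seen because RBPJ is known to act on it, had 275, 173 and 95.5 in Stim1KO Stat3C, against 375, 423 and 333 in Stat3C, and missed the threshold (log2 difference -1.17, SE 0.33, adjusted p = 0.0529, limma). It passed as lower in 9 of 21 other fits, among them those without Stim1KO Stat3C replicate 1 (adjusted p = 0.0254, limma) and without Stat3C replicate 2 (adjusted p = 0.043, limma), and over all 21 adjusted p was 0.00502 to 0.148. Foxp3 rose (log2 difference 0.91, adjusted p = 0.00209), and Il17a and Il17f fell (log2 differences -2.78 and -1.81, adjusted p = 0.000287 each, limma).

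Over the 6 libraries the genes most like Rbpj by Pearson r of log2(value + 1), among 11946 others, were Il2ra, Ttc39b, Dmwd, Chd3 and Tor2a, with r of 0.996 for Tor2a and 0.997 for the others. All 5 were higher in every Stim1KO Stat3C library than in any Stat3C library, and 323 genes had r of at least 0.95, so r here largely repeats the split into groups. Within groups, as deviations from each group's mean, the r of these 5 with Rbpj was 0.26 for Il2ra, 0.67 for Ttc39b, 0.38 for Dmwd, 0.73 for Chd3 and 0.28 for Tor2a. Chd3, a chromatin-remodelling ATPase, was also close to Rbpj in size, with 4718, 4366 and 5005 in Stim1KO Stat3C, against 2218, 2029 and 2142 in Stat3C (log2 difference 1.14).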

How the data were processed

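The 6 libraries were built from 100 ng of RNA by a strand-marking mRNA method, as the labels' protocols state. The build mm10 and the tools TopHat2 2.1.1, HTSeq 0.11.1 and DESeq2 1.22.2 are listed in the submitters' processing notes; the role of each, the gene models and the strand setting are not given in the sources used. For each gene the authors deposited 1 normalised signal value per library, which behaves as counts over a size factor. In each column 100% of the values under 5000 reads were whole multiples (within 0.01) of a step of 0.433 to 1.37. For Stim1KO Stat3C replicate 3 the step (0.995) lay close to 1, so edgeR was also run without this library. Dividing by the step gave back reads, a 3.21-fold range in depth. No replicate pair was a copy (chi-square per degree of freedom at least 8.70). Rows whose name had become a date (27) were left out.

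Tests used limma 3.58.1 (variance trend, two-sided, no covariate) on log2(value + 1), with Benjamini-Hochberg adjustment over all genes tested, in R 4.3.3. Because the values are not raw counts, edgeR 4.0.16 (1507 genes called), DESeq2 1.42.0 (2250) and voom served as alternatives on recovered reads. The steps were tested on simulated data. Members and lists were chosen with earlier results of these data known. Named list genes were up to 4 past the threshold per list by smallest adjusted p, or the 1 with the highest mean. The 5 genes most like Rbpj were also named, and Stim1 as the deleted gene. Other names, such as Notch4, Ccnd1 and single markers of cell types, were chosen after their values were seen. This holds also where it is not said beside them. Positions and exon lengths are from GENCODE mouse release M21 (GRCm38), promoters from RefSeq (GRCm38.p6). The values of 2 genes on these lists are not reported here. Replicates were numbered in accession order, and the labels give no batch or pairing.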

Additional observations from a re-analysis of the deposited data

How the results depend on the processing

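Besides limma as reported, 21 other fits were run, 19 planned and 2 added after the data were seen (edgeR without Stim1KO Stat3C replicate 3, and replicates 1 and 2 of each group only). The calls for Stim1, Il2ra, Il17a and Il17f held in all 21. Those for Notch1, Lfng, Tle1, Tcf7, Bcl11b, Foxp3 and Il10 were lost only with replicates 1 and 2 alone. The median of all genes moved furthest, to -0.04, with upper quartile scaling. Notch3 turned to -0.12 with library quality weights and, without Stim1KO Stat3C replicate 1 and Stat3C replicate 3, to -0.39 and -0.12 (range over libraries left out -0.39 to 0.81). Dtx1 turned to -0.042 with replicates 1 and 2 only. Nrarp turned to -0.016 with upper quartile scaling, -0.044 with edgeR, -0.053 with DESeq2, -0.038 with voom, -0.21 with edgeR without Stim1KO Stat3C replicate 3 and -0.35 with replicates 1 and 2 only, and to -0.12, -0.046 and -0.21 without Stim1KO Stat3C replicate 3 and Stat3C replicates 1 and 3 (range -0.21 to 0.31). These 3 genes rest on few reads or lie near 0. The causes of the shifts in counts were not tested.

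Over all genes, 1030 were higher and 593 lower. Leaving out 1 library gave 477 to 1707 higher and 140 to 1192 lower, the most without Stat3C replicate 2. Without a variance trend the numbers were 603 and 224, with library quality weights 2155 and 1804, with edgeR without Stim1KO Stat3C replicate 3 639 and 283, with replicates 1 and 2 only 66 and 16, and DESeq2 called 1004 lower.

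Over the 7 pathway lists, 7 were higher and 5 lower. Leaving out 1 library gave 3 to 12 higher and 2 to 6 lower. Library quality weights gave 15 and 9, and replicates 1 and 2 only gave 1 and 0. No variance trend gave 5 and 3, and edgeR without Stim1KO Stat3C replicate 3 gave 5 and 2. By list, leaving out 1 library gave 0 to 1 higher for cleavage, 0 to 5 higher for trafficking, 0 to 2 higher and 0 to 1 lower for coactivators, 1 to 3 lower for corepressors, 2 to 3 higher and 1 to 2 lower for targets, 1 higher for glycosylation, and 4 to 8 higher and 3 to 4 lower for the T helper genes. Library quality weights gave 2 higher for cleavage, 6 for trafficking, 2 for coactivators and 1 for corepressors, and 5 lower for corepressors and 3 for targets. With replicates 1 and 2 only, targets had 1 higher and 0 lower, and cleavage, glycosylation, trafficking, coactivators and corepressors had 0 in the directions reported, and the T helper genes had 0 higher and 2 lower. Without a variance trend cleavage had 0 higher, coactivators 0 lower and the T helper genes 4 higher. With edgeR without Stim1KO Stat3C replicate 3, cleavage had 0 higher, coactivators 0 lower, trafficking 1 higher, corepressors 1 lower and the T helper genes 4 higher. Trafficking had 1 higher with no filter, upper quartile scaling, edgeR and voom. The T helper genes had 4 higher with a robust variance prior, corepressors 1 higher with Xist as a covariate, and targets 2 lower with DESeq2. The order of the members by level per kilobase in Stim1KO Stat3C was the same with the length of the longest transcript, while in Stat3C Hes1 and Nrarp changed places. The labels give no replicate numbers that pair libraries, so no block was fitted. Depth limits Notch3, Hes1 and Nrarp, which had 6 to 152 reads per library.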
